A study of Mus musculus with 120 samples.

Results

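LP, the lateral posterior nucleus, and PO, the posterior nucleus, are higher-order sensory nuclei of the mouse thalamus, LP for vision and PO for touch. They were compared here in 16 of the 120 libraries of a transcriptome atlas of thalamic projection neurons: the 9 libraries whose titles name LP labelled from visual cortex and the 7 whose titles name PO labelled from barrel cortex. Each library is bulk RNA-seq of a small pool of neurons that were labelled backwards from their cortical target with DiI, a lipophilic dye that travels along axons, and then sorted by hand. All mice were wildtype. The LP mice were males of 64 to 135 days with DiI in primary visual cortex (V1) and CTB in the eyes, and gave 47 to 99 cells per library. The PO mice were males of 69 to 100 days with DiI in barrel cortex, and gave 51 to 77 cells per library. The 9 LP libraries came from 9 animals and the 7 PO libraries from 8, of which 1 library (library 4) pooled several animals. Total counts per library ran from 9765071 to 14865267 in LP and from 13161740 to 17056107 in PO.

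The first-order nuclei labelled from the same cortical areas served only as a reference. They were LGd, the dorsal lateral geniculate nucleus (5 libraries, males of 64 to 136 days, DiI in visual cortex and CTB in the eyes, 46 to 65 cells), and VB, the ventrobasal complex (4 libraries, males of 69 to 100 days, DiI in barrel cortex, 14 to 61 cells). In LGd 4 of the 5 libraries and in VB 3 of the 4 pooled cells of several animals. LP and LGd shared 6 animals and 1 amplification date, and PO and VB shared 6 animals and 1 date.

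First-order nuclei relay input from the sense organs to primary cortex, LGd from the retina and VB from the whiskers and body. Higher-order nuclei are driven in large part by layer 5 of cortex itself and send axons back to several cortical areas. LP corresponds to the pulvinar of primates, and PO is the best known higher-order partner of the whisker pathway. Thalamic projection neurons are glutamatergic, express the vesicular glutamate transporter Slc17a6 and the transcription factor Tcf7l2, and fire in tonic and burst modes set by their channels.

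Both nuclei carried the marks of thalamic projection neurons at like levels. Slc17a6 was at 883 to 1614 CPM (read counts scaled to the size of each library, with TMM factors) in LP, with a median of 1011, and at 707 to 1059 in PO, with a median of 905. Tcf7l2 was at 1687 to 2688 CPM in LP and 1841 to 2893 in PO. Neither passed the test between LP and PO (edgeR adjusted p = 0.508 and 0.955).

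Atp2b4, Htr2c and Sorl1 were taken as markers of this pair. Atp2b4, a plasma membrane calcium pump, had 66.7 to 172 CPM in LP (median 125) and 23.1 to 210 in PO (median 94.7), while none of the LGd and VB libraries exceeded 0.173 CPM. By group mean LP ranked the first and PO the fourth of the 24 groups. Htr2c, a serotonin receptor, had 70.2 to 222 CPM in LP (median 199) and 42.9 to 182 in PO (median 62.0), beside 0 to 7.12 in LGd and 0.611 to 8.93 in VB. By mean LP ranked only the 11th and PO the 12th of the 24 groups in Htr2c, so its level was not particular to this pair. Sorl1, a sorting receptor of the endosome, had 73.4 to 335 CPM in LP (median 138) and 16.3 to 87.3 in PO (median 67.9), but also 146 to 285 in VB, so that its level did not set the higher-order pair apart. In Sorl1 LP ranked the 9th and PO the 19th. None of the 3 passed the test between LP and PO in the fit over all libraries, with adjusted p = 0.983 for Atp2b4, 0.612 for Htr2c and 0.132 for Sorl1.

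**Figure D1:**
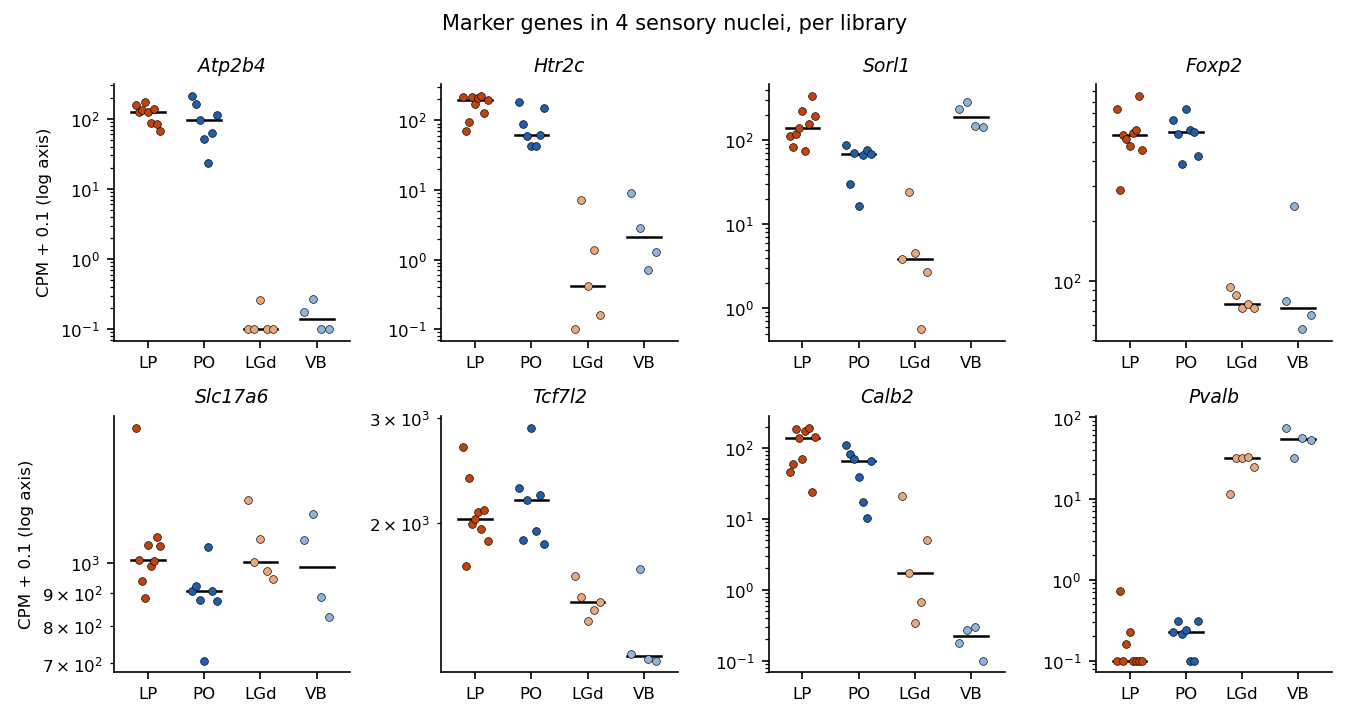
Levels of 8 marker genes in the 9 LP, 7 PO, 5 LGd and 4 VB libraries, as CPM plus 0.1 on a log axis. Each point is a library and each bar the median of its group. Atp2b4 and Htr2c were high in LP and PO and low in LGd and VB, Pvalb the reverse, and Sorl1 was low only in LGd among these 4 groups.

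Other thalamic marker genes did not pass the test between LP and PO. Foxp2, a forkhead transcription factor, had a mean of 555 ± 162 CPM in LP (SD, n = 9) and 554 ± 118 in PO (SD, n = 7), and LP and PO ranked the second and the third of the 24 groups in it. The calcium-binding proteins Calb1 and Calb2 had means of 173 and 115 CPM in LP and of 218 and 56.8 CPM in PO (adjusted p = 0.856 and 0.640). Pvalb, parvalbumin, was near absent from both, at 0.0901 and 0.114 CPM. Gbx2, a homeobox gene of the developing thalamus, ran from 3.85 to 71.2 CPM in LP and from 5.43 to 106 in PO, a wide spread within each nucleus.

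Markers of other cell types were measured in both nuclei, with ranges that overlapped. Of 15 oligodendrocyte genes 11 were measured, and their summed level ran from 12.1 to 1074 CPM in LP and from 3.81 to 264 in PO. Of 12 astrocyte genes 3 were measured (Slc1a2, Slc4a4 and Aldoc, with a sum of 1044 to 1845 CPM in LP and 832 to 1448 in PO), and of 12 microglial genes 4 (7.09 to 39.2 and 1.22 to 87.4 CPM). Of 11 genes of reticular and local inhibitory neurons 3 were measured, with a sum of 0 to 32.2 CPM in LP and 0.0705 to 27.5 in PO. Of 10 genes of cortical glutamatergic neurons 3 were measured (34.9 to 102 and 56.4 to 151 CPM), and no gene of the 16 vascular or 10 habenular markers was tested. The deposited table held 16538 genes, of which 16527 were tested, so most of the other listed markers were not in that table. That they are missing here is no measure of a low level. None of the measured markers passed the test between LP and PO except Npy, described below, and the part of other cells in the results was not tested.

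Of all comparisons of LP or PO with another group, LP against PO gave the fewest calls. A total of 58 of 16527 genes tested differed at a Benjamini-Hochberg adjusted p under 0.05 (edgeR quasi-likelihood test over all libraries), which is 0.351% of the genes. In 44 comparisons of LP or PO with the other 22 groups the same test called 120 to 2126 genes (0.726% to 12.9%), with a median of 989. Against their first-order partners the counts were 599 for LP and LGd (3.62%) and 438 for PO and VB (2.65%). The comparison with the fewest calls after LP and PO was LP with IAD, a group of 3 libraries, and a group of few libraries gives fewer calls than a large one at the same difference. The correlation of mean log2 CPM was 0.939 between LP and PO, the highest that either had with any of the other 23 groups. It was taken over 9228 genes that averaged 10 CPM or more in LP or in PO, a choice made on this pair alone. Averages over few libraries are noisier, which lowers a correlation, and the part of group size in this ranking was not tested.

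**Figure D2:**
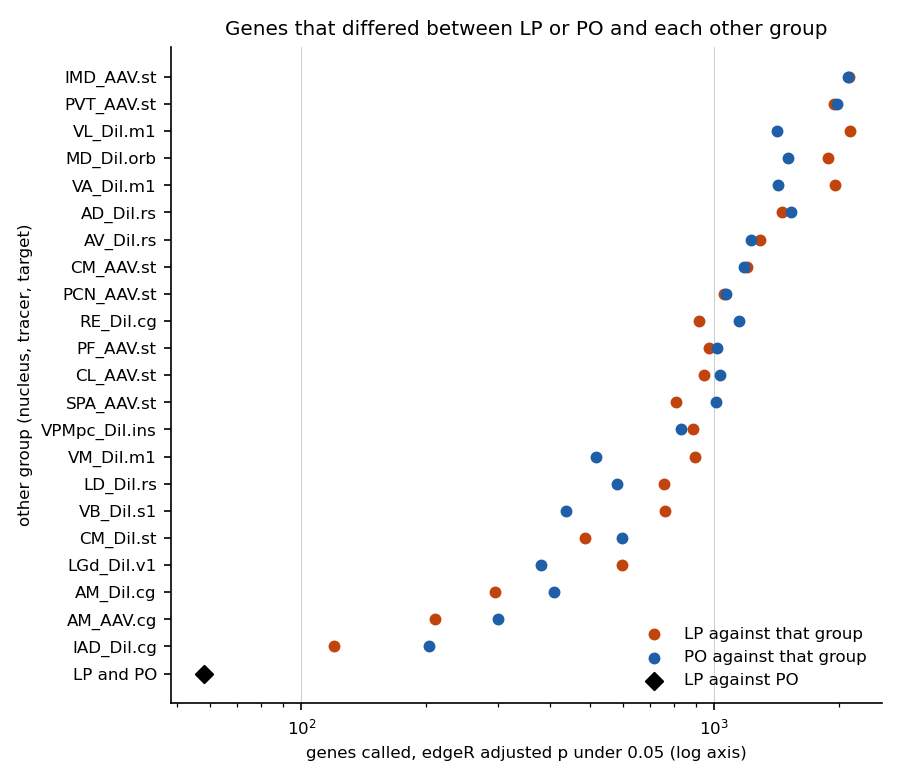
Number of genes called (edgeR adjusted p under 0.05, log axis) when LP or PO was set against each other group, named by nucleus, tracer and target. The black diamond is LP against PO, at 58 genes, and each other row holds 1 point for LP and 1 for PO, from 120 genes upward.

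Single libraries varied almost as much within a nucleus as between the pair. The correlation of log2 CPM had a median of 0.763 over the 36 pairs of LP libraries, 0.769 over the 21 pairs of PO libraries and 0.743 over the 63 mixed pairs. The leading component of the 500 most variable genes held 12.8% of the variance, with LP libraries at 0.694 to 24.6 and PO libraries at -43.3 to 2.73, so that the ranges overlapped.

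Of the 58 genes, 32 were higher in LP (0.194% of those tested) and 26 higher in PO (0.157%). In 33 of them the mean of the higher nucleus was at least 10 CPM. In 11 the ranges of LP and PO did not overlap, 9 higher in LP and 2 in PO. Of all genes tested 24 had ranges without overlap (0.145%), 13 higher in LP (0.0787%) and 11 in PO (0.0666%). In 9 genes both held: Tenm2, Cadm1, Alcam, Rasgrf2, Pak3, Sparcl1 and Dmd, higher in LP, and Abhd12b and Pcp4, higher in PO. At the other end, 16 of the 58 had no read in the lower nucleus and 21 drew more than 50% of the summed level of the higher nucleus from 1 library. Since a library holds many cells, fewer cells with a gene and less of its RNA per cell cannot be told apart.

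Tenm2, the gene with the smallest adjusted p, and Cadm1 are adhesion molecules higher in LP. Tenm2 (teneurin 2, a synaptic adhesion protein that binds latrophilins across the cleft) had 586 to 922 CPM in LP with a median of 696, and 180 to 265 in PO with a median of 233. Every LP library stood far above every PO library, by a log2 fold change of 1.69 ± 0.21 (standard error, edgeR adjusted p = 2.01e-08). Tenm2 spans positions 36006656 to 37235964 of chromosome 11 on the minus strand (GENCODE M21, mm10), and LP had the third highest mean of the 24 groups.

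Cadm1, an immunoglobulin adhesion molecule of synapses, had 114 to 316 CPM in LP (median 188) and 24.6 to 111 in PO (median 55.9). The groups came close but did not overlap, and the log2 fold change was 1.83 ± 0.29 (adjusted p = 3.46e-05). Alcam, an adhesion molecule of growing axons, had 6.32 to 59.4 CPM in LP (median 22.0) and 0 to 4.95 in PO (median 0.728), with no read in 3 PO libraries. Its log2 fold change was 3.58 ± 0.76 (adjusted p = 0.00616), and it was not called in a fit of LP and PO alone (adjusted p = 0.137). Of 52 adhesion molecules of the leucine-rich repeat and immunoglobulin families tested, 2 were higher in LP (Tenm2 and Cadm1) and none in PO. That is 3.85%, beside 0.351% of all genes, and their median log2 fold change was 0.02 beside 0.01 over all genes.

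Axon guidance genes were called in both directions. Sema6d, a membrane-bound semaphorin, had 98.3 to 199 CPM in LP (median 167) and 22.5 to 100 in PO (median 67.4), a log2 fold change of 1.29 ± 0.29 (adjusted p = 0.0136). The ranges met at their ends, and the call was lost without PO library 2 (adjusted p = 0.0659) or PO library 7 (0.0516). Plxna2, a semaphorin receptor, was at 17.1 to 94.1 CPM in LP and 62.6 to 158 in PO (log2 fold change -0.94 ± 0.24, adjusted p = 0.0422), with ranges that overlapped. This call was lost on leaving out any 1 of 10 of the 16 libraries (adjusted p up to 0.135), and in a fit of LP and PO alone (0.285). Of 42 guidance genes tested 1 was higher in LP and 1 in PO (4.76%, beside 0.351% of all genes).

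Rasgrf2, an exchange factor that couples calcium to Ras and Rac, had 15.5 to 74.7 CPM in LP (median 28.1) and 0 to 14.9 in PO (median 3.14). The groups just missed each other (log2 fold change 2.89 ± 0.58, adjusted p = 0.00305, and 0.107 in a fit of LP and PO alone). Pak3, a kinase that acts below Rac in dendritic spines, had 351 to 672 CPM in LP (median 433) and 169 to 315 in PO (median 250). Its fold change was among the smaller ones but every LP library was above every PO library (log2 fold change 0.96 ± 0.20, adjusted p = 0.00305).

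Srgap3, which inactivates Rac, was higher in LP (117 to 294 against 62.6 to 121 CPM, log2 fold change 1.13 ± 0.26, adjusted p = 0.0172). That call was lost without LP library 8 (adjusted p = 0.0502) or PO library 4 (0.0616), and in the fit without the pooled libraries of PO, LGd and VB (0.0587). Elmo1, part of an activator of Rac, was higher in PO (234 to 458 CPM in LP, 451 to 707 in PO, log2 fold change -0.79 ± 0.18, adjusted p = 0.0172). Its ranges overlapped narrowly, and the call was lost without PO library 4 (adjusted p = 0.0556). Ptpn3, a tyrosine phosphatase of the cell cortex, was also higher in PO (269 to 516 and 465 to 816 CPM, log2 fold change -0.72 ± 0.17, adjusted p = 0.0188), and PO had the highest mean of all 24 groups. That call was lost without LP library 1 or 6 or PO library 3 (adjusted p of 0.0521 to 0.0668).

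Sparcl1 and Dmd completed the set that separated the libraries in favour of LP. Sparcl1, a secreted matrix protein that promotes synapse formation, had 357 to 681 CPM in LP (median 464) and 103 to 261 in PO (median 186). No library crossed over (log2 fold change 1.42 ± 0.24, adjusted p = 0.000187), though LGd (647 to 1148 CPM) and VB (611 to 906) lay above all of PO and above most of LP. Dmd, dystrophin, had 89.3 to 197 CPM in LP (median 114) and 40.9 to 82.5 in PO (median 53.9). The log2 fold change was 1.13 ± 0.26 (adjusted p = 0.0188), PO had the lowest mean of the 24 groups, and the call was lost without LP library 1 or 7 or PO library 2 or 4 (adjusted p of 0.0537 to 0.0683).

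Fam19a1, which encodes a small secreted protein also called Tafa1, was close to absent in PO. It had 3.10 to 26.2 CPM in LP with a median of 7.26, and reads in all 9 libraries. PO held a single read over its 7 libraries, against 1108 in LP, a ratio of 901 with a 95% counting interval of 171 to 37710 that covers counting error only. Both first-order nuclei had the gene, at 5.84 to 35.5 CPM in LGd and 10.5 to 28.7 in VB, and PO was the lowest of the 24 groups.

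**Figure D3:**
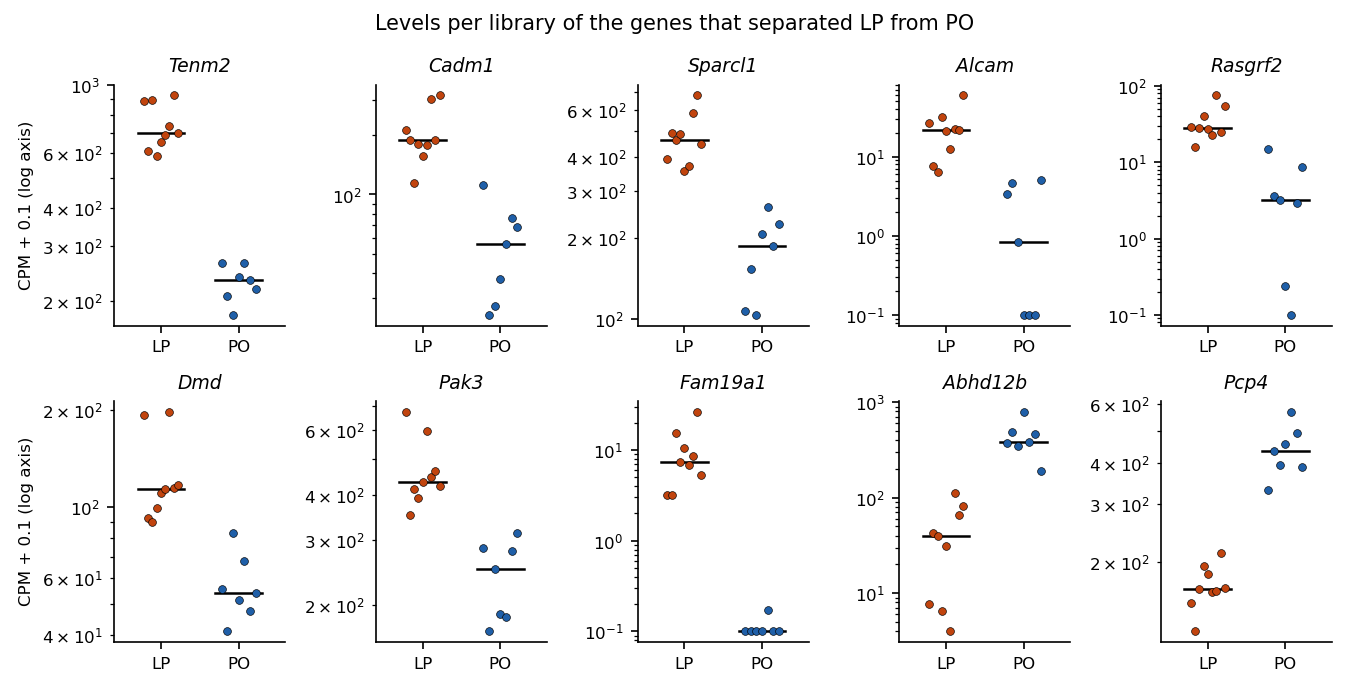
Levels per library of 10 genes whose LP and PO ranges did not overlap and that passed the test, as CPM plus 0.1 on a log axis. Points are the 9 LP and 7 PO libraries and bars the medians, with 8 genes higher in LP and Abhd12b and Pcp4 higher in PO.

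Abhd12b and Pcp4 were the corresponding genes of PO. Abhd12b, a serine hydrolase of the family that cleaves lipids, had 3.87 to 111 CPM in LP (median 39.4) and 192 to 789 in PO (median 380). PO had the highest mean of the 24 groups and VB the next, and the log2 fold change was -3.32 ± 0.55 (adjusted p = 0.000106). The gene lies at positions 70154142 to 70183887 of chromosome 12 on the plus strand (GENCODE M21, mm10).

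Pcp4, a small protein that binds calmodulin and speeds its exchange of calcium, had 123 to 213 CPM in LP (median 165) and 329 to 569 in PO (median 433). The ranges were far from overlap, with a log2 fold change of -1.37 ± 0.24 (adjusted p = 0.000271). LGd (469 to 625 CPM) and VB (555 to 891) were nearer to PO than to LP, and by mean LP ranked the 16th and PO the fifth of the 24 groups.

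Nr2f2 (COUP-TFII), a nuclear receptor, was the single call among 31 thalamic transcription factors tested (3.23%, beside 0.351% of all genes, median log2 fold change 0.18). It had 2.94 to 33.1 CPM in LP (median 12.7) and 20.5 to 91.8 in PO (median 65.8), a log2 fold change of -2.21 ± 0.51 (adjusted p = 0.0162). LP library 8 alone reached into the PO range, and without the pooled libraries of PO, LGd and VB the adjusted p was 0.0587. VB had 76.0 to 239 CPM and LGd 15.5 to 32.2 (adjusted p = 0.0593). Among the members that missed the threshold, Foxp1 stood at 37.8 to 133 CPM in LP and 109 to 246 in PO (log2 fold change -1.10 ± 0.29, adjusted p = 0.0599), and Rorb at 529 against 380 CPM (adjusted p = 0.429). Leaving out LP library 1 or PO library 1 or 6 gave Foxp1 an adjusted p of 0.0251 to 0.0496.

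Among receptors and their partners the calls include several genes of low level. Gabra5, the GABA-A receptor subunit of extrasynaptic tonic inhibition, had 8.86 to 112 CPM in LP (median 45.9) and 0.223 to 16.9 in PO (median 2.63). The highest PO library overlapped the lowest of LP, and the log2 fold change was 3.20 ± 0.63 (adjusted p = 0.00224). It was the single gene called among 19 GABA and glycine receptor subunits (5.26%, beside 0.351% of all genes). The synaptic subunit Gabra2 had 58.7 to 278 CPM in LP and 25.7 to 96.4 in PO (adjusted p = 0.114 over all libraries, and 0.0170 in a fit of LP and PO alone).

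Cacng3, an auxiliary subunit of AMPA receptors, had 4.03 to 84.0 CPM in LP (median 20.4) and 0 to 6.88 in PO (median 0.557). PO was the lowest of the 24 groups (log2 fold change 3.47 ± 0.79, adjusted p = 0.0162), and the call was lost without PO library 2, 4 or 5 (adjusted p of 0.0516 to 0.0579). In a fit of LP and PO alone Cacng3 had an adjusted p of 0.142. The AMPA, NMDA and kainate receptor subunits themselves gave no call among 17 tested.

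Cnr1, the CB1 cannabinoid receptor, had reads in 7 of 9 LP libraries, from 0 to 36.8 CPM with a median of 2.68, and none in PO, at least a 198-fold difference in the means against a floor of 3 reads over the PO group. Library 9 of LP held 70.9% of that signal, and without it the bound was 65.1-fold. Its edgeR adjusted p was 0.00426. Grm8, a presynaptic metabotropic glutamate receptor, had 0.0641 to 27.9 CPM in LP (median 2.98) and 0 to 0.889 in PO (median 0.139). Its call (log2 fold change 4.11 ± 0.96, adjusted p = 0.0188) was lost without LP library 2, which held 50.8% of the LP signal (adjusted p = 0.0994), and without PO library 2, 5 or 7 (up to 0.0642). In a fit of LP and PO alone Grm8 had an adjusted p of 0.324, and Cnr1 was not among the genes tested.

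The cyclic AMP phosphodiesterase Pde4b was higher in LP at a far higher level. It had 130 to 310 CPM in LP (median 237) and 18.2 to 158 in PO (median 79.0), a log2 fold change of 1.33 ± 0.30 (adjusted p = 0.0118). The ranges overlapped, and the call was lost without PO library 2 or 5 (adjusted p of 0.0579 and 0.0606). Of 33 genes tested of the G protein and cyclic AMP list it was the 1 that passed (3.03%, beside 0.351% of all genes).

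Pex5l (TRIP8b), the auxiliary subunit that sets the surface level and gating of HCN channels, was higher in PO. It had 45.5 to 211 CPM in LP (median 78.5) and 150 to 396 in PO (median 232), a log2 fold change of -1.17 ± 0.26 (adjusted p = 0.0136). The call was lost without PO library 6 (adjusted p = 0.0613), and it stood at 0.0640 in a fit of LP and PO alone. The channel genes Hcn2 (10.2 against 14.5 CPM, LP mean first), Hcn3 (17.7 against 21.5) and Hcn4 (70.9 against 109) did not pass the test.

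Npy, neuropeptide Y, had no read in LP and 0 to 11.8 CPM in PO (median 0.139, reads in 6 of 7 libraries), at least a 130-fold difference in means (edgeR adjusted p = 0.0188). Library 6 of PO held 51.8% of that signal, and without it the bound was 72.9-fold. VB carried it at 4.53 to 18.8 CPM and LGd had no read. Col24a1, a fibrillar collagen, had 2 reads in LP and 342 in PO, but in only 2 of the 7 PO libraries. Its call (adjusted p = 0.0361) was lost on leaving out any 1 of 10 libraries (up to 0.128). Lgi2, a secreted synaptic organiser, had 0 to 68.9 CPM in LP (median 3.63) and 0 to 6.98 in PO (median 0.672), and its call (adjusted p = 0.0188) was lost without LP library 6 (0.102) or any of 5 PO libraries. In a fit of LP and PO alone Lgi2 had an adjusted p of 0.471, and Npy and Col24a1 were not among the genes tested.

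Cdh4 (R-cadherin), a classical cadherin, was the 1 called of 23 cadherins and protocadherins tested (4.35%, beside 0.351% of all genes). It had 0 to 8.98 CPM in LP (median 2.84) and 1.90 to 110 in PO (median 27.5), with overlap at the low end of PO (log2 fold change -3.37 ± 0.65, adjusted p = 0.00172, and 0.104 in a fit of LP and PO alone). Nudt4, an enzyme of inositol pyrophosphate breakdown, had 76.2 to 210 CPM in LP (median 129) and 202 to 326 in PO (median 268), and only the top of LP touched the bottom of PO. Its log2 fold change was -0.98 ± 0.22 (adjusted p = 0.0162), and 0.0573 without the pooled libraries of PO, LGd and VB.

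Zfp629 and Slx1b are named here because their calls were lost without their highest library. Zfp629, a zinc finger gene, was called as higher in LP (adjusted p = 0.0422) with 607 CPM in LP library 8 and no more than 89.6 in the other 8, and without it the adjusted p was 0.564. The call was also lost without any 1 of 7 other libraries (0.0607 to 0.111). Slx1b, a subunit of a DNA structure nuclease, had 175 CPM in LP library 7 and no more than 29.1 in the others, and its adjusted p rose from 0.0301 to 0.212 without it, and to 0.0511 to 0.0804 without any 1 of 5 PO libraries. Of the 58 calls, 22 held on leaving out each of the 16 libraries in turn and 36 were lost in at least 1 of these fits. Of the 36, Rpp25 and Pcsk5, named after their values were seen, had no read in LP and all their PO reads (837 and 104) in a single library, and without it their log2 value was 0. AI847159 and Cmtm8, also named after their values were seen, had no read in LP and 99.4% and 99.7% of their PO signal in 1 library.

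Most genes of the lists did not pass the test. Of 628 genes tested in 36 lists, 9 were higher in LP and 6 in PO (2.39%, beside 0.351% of all genes). The lists were chosen with earlier results of these data known, so such shares are no measure of enrichment. No member passed among 31 voltage-gated potassium channels, 22 leak, inward rectifier and calcium-activated potassium channels, 13 sodium channels, 17 ionotropic glutamate receptors, 30 genes of the release machinery, 18 neurofilament and cytoskeleton genes or 76 oxidative phosphorylation genes. In all of these the median log2 fold change lay between -0.22 and 0.07. Calcium channel genes gave 1 call of 20, and that was Cacng3. A p that misses the threshold does not show that these genes were equal.

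Some calls differed when only these 16 libraries were fitted. The fit over all libraries takes its spread from 24 groups, and the filter of the smaller fit left fewer genes. The part of each in the changed calls was not tested. The fit of LP and PO alone called 38 of 12400 genes (0.306%), 18 higher in LP and 20 in PO, of which 19 were among the 58, that is 50% of its own calls and 32.8% of the 58, of which 37 were among the 12400. Adgrf5, an adhesion G protein-coupled receptor, had 100 to 187 CPM in LP (median 167) and 324 to 726 in PO (median 539), with no overlap. Its standard error was 0.90 over all libraries (log2 fold change -1.77, adjusted p = 0.445) and 0.17 with the pair alone (-1.76, adjusted p = 2.97e-07). LP and PO ranked the fourth and the second of the 24 groups in it.

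Necab1, a neuronal calcium-binding protein, also passed in the fit of the pair alone. It had 730 to 2550 CPM in LP (median 1404) and 356 to 783 in PO (median 601), with an adjusted p of 0.261 over all libraries and 0.000241 with the pair alone. Sorl1 also passed with the pair alone (adjusted p = 0.0492).

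Runx1t1, a transcriptional corepressor (204 to 319 CPM in LP, 86.6 to 184 in PO), and Pcdh10, a protocadherin (341 to 581 and 174 to 344 CPM), were higher in LP with the pair alone (adjusted p = 0.00941 and 0.0170) and not over all libraries (0.111 and 0.0651). Shisa6, an auxiliary protein of AMPA receptors (219 to 481 CPM in LP, 404 to 732 in PO), Sh3d19, an adaptor protein (114 to 207 and 219 to 475 CPM), and Slc4a4, a bicarbonate transporter (60.1 to 144 and 107 to 417 CPM), were higher in PO with the pair alone (adjusted p = 0.00235, 0.0231 and 0.0155). Slc4a4 is also a gene of the astrocyte list. Over all libraries these stood at 0.152, 0.0504 and 0.197. Of these genes Runx1t1 and Sh3d19 had ranges without overlap. The genes of this set were chosen after their values were seen.

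LP and PO were amplified on different dates, LP on 2 dates (7 and 2 libraries) and PO on 2 others (4 and 3), so date and nucleus cannot be told apart within the pair. The same holds for the animals, none of which gave both nuclei, and for CTB in the eyes, listed for the LP mice only. When each LP date was set against each PO date, 50 of the 58 genes kept their sign in all 4 combinations. The 9 separated genes were bound to do so, since their ranges did not overlap. The 58 were called from these same libraries, and every combination differs in date as well as in nucleus. For Tenm2 the log2 fold change was 1.63 to 1.75 over these combinations, for Abhd12b -4.31 to -2.83 and for Pcp4 -1.82 to -1.18. Between dates within a nucleus 1 gene was called in LP and 0 in PO (edgeR adjusted p under 0.05). The 4 combinations of an LP with a PO date, from the same small sets, gave at most 5 genes higher in LP and 8 in PO. The median absolute log2 fold change of genes of at least 10 CPM was 0.46 between LP dates and 0.38 between PO dates. In the 4 combinations it was 0.35 to 0.54, so these counts do not tell how large an effect of date is. A date term over all groups can be estimated through groups amplified on several dates. With it 27 genes were called (0.163%), of which only Abhd12b was among the 58 (log2 fold change -8.37 ± 1.66, adjusted p = 0.0109). Without the term Abhd12b stood at -3.32. The log2 values of the 27 genes ran from -21.7 to 19.5, so their sizes are no measure of the fold. Of the 58 calls, 51 kept their sign with the term and 19 had an unadjusted p under 0.05. The median standard error of the calls of at least 10 CPM was 0.865 with that term and 0.29 without. Tenm2 stood at 0.76 ± 0.62 with the term (adjusted p = 0.746).

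**Figure D4:**
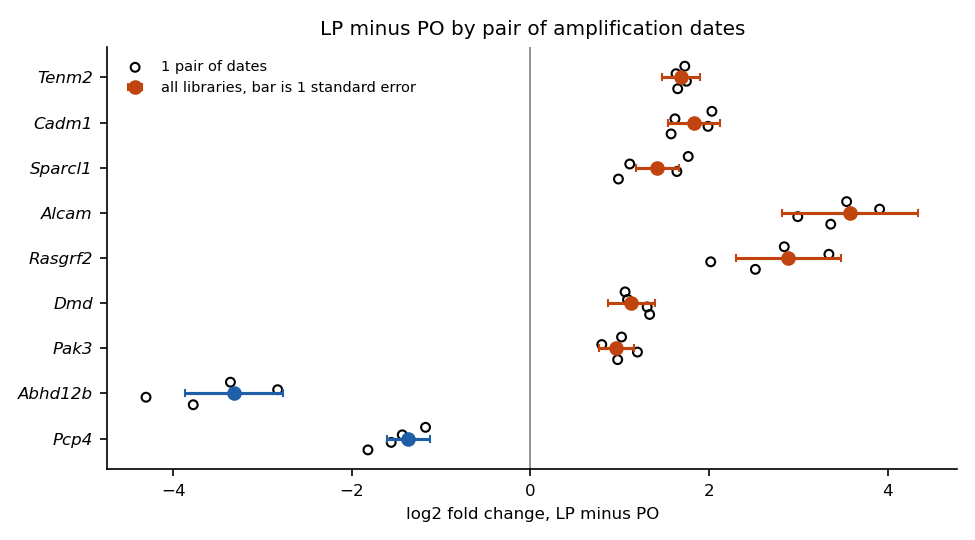
Log2 fold change of LP minus PO for the 9 separated genes. Filled points with bars are the estimate over all libraries and 1 standard error, and open circles the 4 combinations of an LP date with a PO date. All lie on the same side of 0 as the estimate, which follows from the choice of genes whose ranges did not overlap.

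The difference between the visual and the tactile nucleus was also taken in the first-order pair. LGd against VB gave 48 calls (0.29%), and across 8069 genes of at least 10 CPM the log2 fold changes of LP minus PO and of LGd minus VB had a Pearson correlation of 0.06 (Spearman 0.04, a description over genes of separate libraries, some from the same animals). Of the 32 genes higher in LP 18 had the same sign in LGd minus VB, and of the 26 higher in PO 21 did. A sign can rest on few reads, and without the share over all genes these counts are no result about the called genes. In LGd against VB 2 of the 32 were called with the same sign and 1 with the opposite, and 0 of the 26 were called. Cadm1 (34.6 to 144 CPM in LGd and 7.61 to 30.9 in VB, adjusted p = 0.000114) and Pde4b (56.7 to 102 and 2.33 to 31.6 CPM, adjusted p = 0.0102) were higher in the visual nucleus of both pairs. The pairs were not independent, since LP and LGd shared 6 animals and PO and VB shared 6. In both pairs animals, dates and CTB in the eyes differed along with vision and touch, and cannot be told apart from them.

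The test of the difference itself, LP minus PO minus LGd plus VB, called 33 genes (0.2%), 26 with a positive and 7 with a negative value. Of these 6 were also called between LP and PO, 18 between LGd and VB, and 1, Srgap3, in both. LGd and VB libraries were few and mostly pooled. Without the pooled libraries 1 LGd and 1 VB library remained, and 7 genes were called, with each lone library assumed to vary like the other groups. Of the 16 genes named below, Pcdh17 (adjusted p = 0.0110) and Sorl1 (0.0329) kept their call in that fit. The summed level of 11 oligodendrocyte genes was 13.0 to 192 CPM in LGd and 75.6 to 2130 in VB, and its part in these values was not tested.

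Among the named genes with positive values, several were present in LP, PO and VB and low in LGd. Pcdh17, a protocadherin, had 43.8 to 267 CPM in LP and 57.6 to 138 in PO. In LGd its libraries had 0, 0, 0.813, 1.70 and 4.17 CPM and in VB 21.5, 28.0, 73.2 and 120. Among these nuclei LGd alone was low, and the difference of differences was 5.54 ± 0.58 on the log2 scale (adjusted p = 6.76e-12). By mean LP and PO themselves ranked the 20th and 21st of the 24 groups in Pcdh17. They ranked the 19th and 20th in Nxph1 and the 18th and 19th in Oprm1, both given below.

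Nxph1, a secreted ligand of neurexins, had 64.0 to 199 CPM in LP and 64.6 to 150 in PO. In LGd its libraries had 0.162, 0.254, 0.256, 0.465 and 1.27 CPM and in VB 3.0, 17.1, 29.6 and 42.1. The difference of differences was 5.92 ± 0.65 (adjusted p = 4.01e-11), and LP against PO did not pass (adjusted p = 0.868). Adcyap1r1, the receptor of the peptide PACAP, had 59.1 to 153 CPM in LP and 45.9 to 205 in PO, against 0, 0, 0.254, 0.256 and 1.2 in LGd and 9.25, 9.40, 10.7 and 13.2 in VB (difference of differences 4.86 ± 0.97, adjusted p = 0.00379). Both first-order nuclei were low here, LGd the more so.

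Sorl1 had 0.462, 2.61, 3.75, 4.46 and 24.4 CPM in LGd and 146, 148, 233 and 285 in VB, with the LP and PO ranges given above. VB was above LGd and LP above PO in the medians, and the difference of differences was 6.25 ± 0.80 (adjusted p = 1.40e-08). Srgap3 had 43.2, 60.0, 65.6, 88.9 and 125 CPM in LGd and 167, 208, 292 and 326 in VB. It was thus higher in LP than in PO and lower in LGd than in VB, both past the threshold (adjusted p = 0.0172 and 0.00188), with a difference of differences of 2.82 ± 0.43 (adjusted p = 5.49e-06).

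The calls of Oprm1 and Rorb were lost without VB library 2, with the difference still positive. Oprm1, the mu opioid receptor, had 3.33 to 101 CPM in LP and 23.7 to 70.3 in PO, while VB had 0, 0.0667, 7.43 and 47.1 and LGd at most 1.05. Its difference of differences (5.39 ± 1.05, adjusted p = 0.00310) became 2.96 without that library (adjusted p = 0.295). Rorb, a nuclear receptor of sensory relay neurons, had 284 to 819 CPM in LP and 235 to 497 in PO, against 416 to 676 in LGd and 913, 969, 1137 and 2422 in VB. Its value of 1.91 ± 0.39 (adjusted p = 0.00677) became 1.49 without it (0.0998).

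Gas7, a protein of growing neurites, had no read in LGd, 0.542 to 45.4 CPM in LP, 1.19 to 29.9 in PO and 0.0865, 2.13, 4.17 and 34.4 in VB (adjusted p = 0.00126 for the difference of differences). Myo1e, a class I myosin, had no read in LGd and 18 CPM in VB library 1 but at most 0.204 in the other 3, and without it the adjusted p rose from 0.0137 to 0.507. Erich5, a gene without a well-known function, had 3.10 to 34.8 CPM in LP, 0.306 to 7.25 in PO and at most 0.594 in LGd and 6.56 in VB. Its adjusted p of 0.0235 passed 0.05 without any 1 of 5 libraries (up to 0.202). Fam19a1 differed between LP and PO and not between LGd and VB (adjusted p = 1.00), while the difference of differences had an adjusted p of 0.0146.

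Of the named genes with negative values, Rph3a, Mgll, Igsf21 and Sntb1 were low in VB. Rph3a (rabphilin, a synaptic vesicle protein) had 417 to 818 CPM in LP and 448 to 718 in PO, 407 to 584 in LGd and 92.5, 152, 183 and 241 in VB. The value was -1.51 ± 0.34 (adjusted p = 0.0188), lost without LGd library 1 or VB library 3 or 4 (0.0528 to 0.104). Mgll, the lipase that breaks down the endocannabinoid 2-arachidonoylglycerol, had 10.5 to 31.9 CPM in LP, 24.3 to 83.5 in PO, 19.2 to 67.6 in LGd and 0.259, 0.267, 4.48 and 7.67 in VB. The value was -4.46 ± 1.01 (adjusted p = 0.0188), lost without LGd library 2 or VB library 2 or 4 (0.0585 to 0.0892).

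Igsf21, a synaptic adhesion protein, had 4.99 to 64.5 CPM in LP and 1.90 to 30.5 in PO. LGd had 0.162, 0.682, 2.31, 5.52 and 27.8 CPM and VB at most 0.0791, and the call (adjusted p = 0.00832) was lost without LGd library 2 (0.105). Sntb1, a syntrophin, had 8.37 to 37.9 CPM in LP, 9.60 to 37.4 in PO, 0.346 to 12.6 in LGd and at most 0.346 in VB (adjusted p = 0.00434, and 0.0844 without LGd library 1). Foxp1 had 37.8 to 133 CPM in LP, 109 to 246 in PO, 37.1 to 148 in LGd and 18.9, 29.7, 41.4 and 52.2 in VB. Its VB range overlapped those of LP and LGd, and PO had the highest mean among these nuclei. The difference of differences of Foxp1 was -2.17 ± 0.50 (adjusted p = 0.0235). That call was lost without LGd library 4, PO library 4 or VB library 1 or 2 (0.0558 to 0.158).

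**Figure D5:**
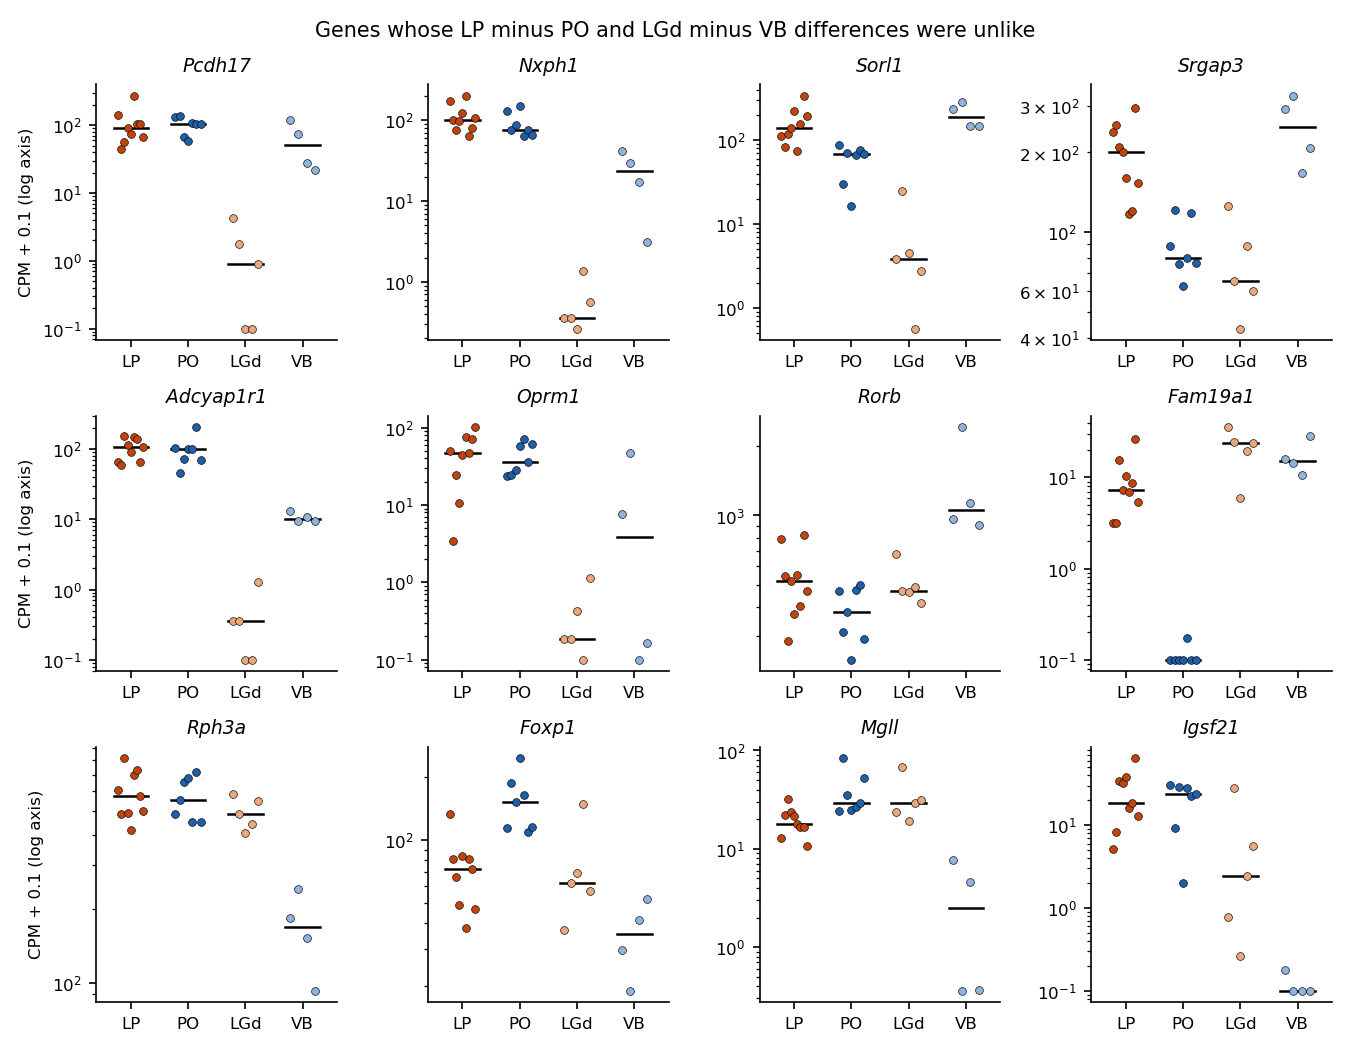
Levels per library in LP, PO, LGd and VB of 12 genes called in the test of the difference of differences, as CPM plus 0.1 on a log axis with medians as bars. In Pcdh17 and Nxph1 LGd stands apart from the other 3 nuclei, and in Sorl1 it does except for LGd library 2. In Rph3a and Mgll VB stands apart and in Fam19a1 PO does, while in Igsf21 VB is the lowest and most of LGd is low too.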

How the data were processed

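Neurons were sorted by hand and their RNA was amplified with the Ovation RNA-seq v2 kit, per the labels. The authors deposited raw read counts, whole numbers for 16538 genes in 120 libraries, with a table of animals, dates and cells. The submitters' processing notes list cutadapt 1.16, STAR 2.5.3a, featureCounts 1.52 and mm10. How these were set is not given in the sources used here. Use of strand is not stated, so overlapping and antisense genes cannot be told apart.

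Counts were tested in 1 edgeR 4.0.16 fit (R 4.3.3) of all libraries with a coefficient per group, TMM factors, filterByExpr (minimum count 10, total 15, leaving 16527 genes) and the two-sided quasi-likelihood test. Calls are Benjamini-Hochberg adjusted p under 0.05. The alternatives were DESeq2 1.42.0, other factors, filters, covariates and subsets of libraries. Fits without 1 library kept the dispersion trend of the whole. Nothing says that the pools of cells were independent beyond the listed animals.

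Named genes are up to 14 separated calls of at least 10 CPM per direction, up to 2 calls per list and direction, the 5 largest differences of differences per direction, and 15 further genes. Elmo1, Ptpn3, Nudt4, Srgap3, Pcdh17, Nxph1, Oprm1, Adcyap1r1, Zfp629, Slx1b, Rpp25, Pcsk5, AI847159, Cmtm8 and those called with the pair alone were chosen after their values were seen. The members and lists were chosen with earlier results of these data known.

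In simulated counts for LP minus PO, 100 genes were changed 2-fold and 100 were changed 4-fold, among 16438 in all. The test gave back 16% and 60% of them and called 5 unchanged genes. The changed genes had a mean of at least 10 CPM over all libraries, and no other difference between groups was simulated. Recovery in the real libraries can therefore differ. No 2 of 57 pairs of libraries within LP and PO held identical counts, and the chi-square per degree of freedom was at least 61.4, far above sampling noise. Each library is a sample of its own. Intervals and floors cover counting error only. Total counts were 9765071 to 17056107 per LP or PO library and 8740008 to 16856173 in LGd and VB.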

Additional observations from a re-analysis of the deposited data

Results flagged for a closer look

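In each of the 178 sets of a named gene and a group of 4 to 10 libraries, the library farthest from the rest was examined by the size of its gap relative to the range. In 44 of them 1 library stood apart. The limit used gives about 1 in 20 by chance for normally distributed values; these CPM are skewed and hold many zeros, and the chance rate for them was not measured.

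In LP the libraries that stood apart were library 9 in Alcam (59.4 CPM) and Cnr1 (36.8 CPM), library 8 in Nr2f2 (33.1 CPM), Zfp629 (607 CPM) and Shisa6 (481 CPM), and library 2 in Grm8 (27.9 CPM), Pvalb (0.620 CPM) and Adgrf5 (100.2 CPM, the lowest). Library 4 stood apart in Cacng3 (84.0 CPM) and Col24a1 (0.13 CPM), library 1 in Foxp1 (133 CPM) and Slc17a6 (1614 CPM), library 3 in Gbx2 (71.2 CPM), library 6 in Pcdh17 (267 CPM) and library 7 in Slx1b (175 CPM). Each was the highest of its set except where given as the lowest.

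In PO it was library 6 in Pex5l (396 CPM) and Adcyap1r1 (205 CPM), library 1 in Lgi2 (6.98 CPM), library 5 in Fam19a1 (0.0743 CPM, the single read), library 4 in Tcf7l2 (2893 CPM), library 2 in Gbx2 (106 CPM) and library 3 in Zfp629 (49.998 CPM).

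In LGd, library 2 stood apart in Sorl1 (24.4 CPM), Igsf21 (27.8 CPM), Mgll (67.6 CPM), Htr2c (7.12 CPM), Cacna1e (26.0 CPM) and Erich5 (0.594 CPM). Library 1 did so in Sntb1 (12.6 CPM), Calb2 (20.96 CPM) and Rorb (676 CPM), library 3 in Atp2b4 (0.162 CPM), library 4 in Nxph1 (1.27 CPM) and library 5 in Adcyap1r1 (1.2 CPM). In VB, library 1 stood apart in Myo1e (18 CPM), Igsf21 (0.0791 CPM), Gbx2 (23.8 CPM), Calb1 (116 CPM) and Necab1 (122 CPM). Library 2 did so in Tcf7l2 (1671 CPM), Rorb (2422 CPM), Foxp2 (238 CPM) and Oprm1 (47.1 CPM), and library 4 in Gas7 (34.4 CPM).

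For 16 named genes the visual minus tactile difference of the higher-order pair differed from that of the first-order pair in the test of the difference itself (edgeR adjusted p under 0.05). On the log2 scale the value was 11.51 for Myo1e, 11.03 for Gas7, 8.75 for Fam19a1, 6.41 for Erich5, 6.25 for Sorl1, 5.92 for Nxph1, 5.54 for Pcdh17, 5.39 for Oprm1, 4.86 for Adcyap1r1, 2.82 for Srgap3 and 1.91 for Rorb. It was -7.71 for Igsf21, -5.23 for Sntb1, -4.46 for Mgll, -2.17 for Foxp1 and -1.51 for Rph3a. Myo1e and Gas7 had no read in LGd, so that their values depend on the prior count and are no measure of size.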

How the results depend on the processing

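The 58 calls between LP and PO (32 higher in LP, 26 in PO) became 320 with DESeq2 (211 and 109, with 56 of the 58 among them) and 122 with edgeR's newer quasi-likelihood method (53 and 69, with 33). They became 38 with the pair alone (18 higher in LP) and 27 with a date term (15 and 12), and 17 were higher in PO without pooled libraries. Leaving out 1 library gave 35 to 75 calls (16 to 35 higher in LP, 19 to 40 in PO), with 35 without PO library 2 and 37 without PO library 4. The 33 differences of differences became 610 with DESeq2, 11 with the date as a block, 16 with a date term and 7 without pooled libraries, and 23 to 40 on leaving out 1 library. LGd against VB went from 48 to 656, to 11 with a date term and to 5 without pooled libraries (34 to 67 on leaving out 1 library). Of the lists, 15 genes became 38 with DESeq2 and 2 with a date term, and 10 to 20 on leaving out 1 library. The leading component held 11.4% of the variance with 1000 genes and 10.1% with all. The cause of these changes was not tested.

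With the replicate number as a block, 22 genes were called (12 higher in LP, 10 in PO), 10 differences of differences and 7 list genes. The numbers do not pair the libraries, since 1 of 7 pairs correlated above 0.1 (-0.07 to 0.20) and 1 PO library correlated best with its own number. The block turned Gbx2 to 0.01 (0.00663), Foxp2 to -0.088, Pcdh17 to -0.039 and Oprm1 to -0.59.

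The date term, chosen after seeing the data like the date combinations, the LGd and VB omissions and the alternatives for lists and for LGd against VB, turned the sign of the log2 difference of LP minus PO for Plxna2 (0.23), Myo1e (-1.84), Mgll (1.14), Rph3a (-0.40), Slc17a6 (-0.19), Gbx2 (2.19), Calb1 (0.72), Pvalb (4.88), Rorb (-0.35), Foxp2 (-0.042), Adcyap1r1 (-0.34) and Sh3d19 (1.29). Without pooled libraries Tcf7l2 turned to 0.026, Pcdh17 to -0.035 and the difference of differences of Oprm1 to -3.59, and with no filter Foxp2 to -0.012. On leaving out 1 library, values crossed 0 for Rph3a (-0.018 to 0.12), Tcf7l2 (-0.12 to 0.019), Gbx2 (-0.68 to 0.46), Foxp2 (-0.098 to 0.087), Pcdh17 (-0.25 to 0.16), Oprm1 (-0.080 to 0.30) and Adcyap1r1 (-0.059 to 0.34). Except for Plxna2, none of these genes passed the test between LP and PO over all libraries. A date block could not be fitted to LP and PO, which share no date. Counts summed per animal left the libraries as they were. Counts of reads limit the genes with few or none in 1 nucleus.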
